A study of Mus musculus with 20 samples.

Results

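The genes described here are 10 markers of the mesenchymal cells of the liver, that is hepatic stellate cells, pericytes and fibroblasts: Lrat, Reln, Hand2, Des, Pdgfrb, Rgs5, Acta2, Tagln, Dcn and Lum. They were taken by gene symbol from the 50559 genes of the deposited count tables. All 10 passed the filter on low counts, which kept 14333 genes.

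Expression was measured by RNA sequencing of bulk tissue in 20 libraries, 5 in each of 4 groups. Tumors were raised in female C57Bl6J wild-type mice by hydrodynamic gene transfer, a rapid tail vein injection that brings plasmids into hepatocytes, where Sleeping Beauty transposase inserts them into the genome. Aldafermin + MYC tumors carried a plasmid for Aldafermin, an engineered analog of the gut hormone FGF19, together with one for MYC. FGF19 + MYC tumors carried human FGF19 with MYC. The sgTrp53 + MYC tumors carried MYC with Cas9 and a guide RNA against Trp53. Their group was read from the sample title, since their treatment label reads "None". The control livers are labelled as healthy and non treated, and came from mice of the same genotype. The paper instead describes its control livers as injected with an RFP plasmid, so that whether these livers had been injected is not settled by the sources. Each tumor library came from an individual tumor, so that plasmid-bearing hepatocytes, other tumor cells and host stroma were sequenced together. The paper states that the tumors came from different mice and calls all replicates biological.

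Stellate cells lie between the sinusoidal endothelium and the hepatocytes. In healthy liver they store vitamin A as retinyl esters, and they are known for losing these stores and taking on a contractile, matrix-producing myofibroblast form in injured liver. Pericytes wrap small vessels, smooth muscle cells wrap larger ones, and portal fibroblasts hold the connective tissue of the portal tracts. In bulk tissue, fewer cells of a type and less RNA per cell cannot be told apart.

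Libraries held 18004977 to 66354724 reads on genes. The 5 sgTrp53 + MYC libraries were deposited in a table of their own and differed in their read statistics. They had 5.34 to 6.82% of reads not aligned against 15.3 to 34.0% in the other 15 libraries, and 11.1 to 14.6% of reads ambiguous between genes against 3.03 to 6.296%. In every comparison with these tumors, the oncogene combination and the table cannot be told apart. Trp53 itself, the target of the guide, was at 46.8 ± 22.6 CPM (reads on a gene scaled to the effective size of its library; SD, n = 5) in sgTrp53 + MYC tumors, 138 ± 32.5 CPM in Aldafermin + MYC tumors, 140 ± 17.9 CPM in FGF19 + MYC tumors and 32.8 ± 2.98 CPM in livers. Levels below are CPM scaled by the trimmed mean of M values (TMM), a scaling in which the livers had factors of 0.615 to 0.682 and the tumors 0.997 to 1.31. Without these factors the median log2 fold change of all genes against liver moved from 0.10 to 0.94 for the FGF19 and Aldafermin tumors, and from 0.07 to 0.95 for the sgTrp53 + MYC tumors. A gene was called where its adjusted p was under 0.05 in edgeR's quasi-likelihood test with Benjamini-Hochberg adjustment over all genes tested, and fold changes are given on the log2 scale ± SE. FGF19 and Aldafermin tumors were set together against livers or against sgTrp53 + MYC tumors by the mean of their 2 group effects, and the comparisons share their liver or tumor libraries.

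In the FGF19 and Aldafermin tumors, 2 of the 10 genes were higher than in liver (Acta2, Tagln), 6 were lower (Lrat, Reln, Hand2, Rgs5, Dcn, Lum) and 2 were not called (Des, Pdgfrb). Of all genes tested in this comparison, 73.7% were called, 39.2% higher and 34.5% lower, so that the number of calls among the markers is near that of genes at large. For sgTrp53 + MYC tumors, Acta2 was higher than in liver, 5 genes were lower (Lrat, Reln, Hand2, Dcn, Lum) and 4 were not called (Des, Pdgfrb, Rgs5, Tagln), where 69.9% of all genes were called, 36.9% higher and 33% lower. Between the FGF19 and Aldafermin tumors and the sgTrp53 + MYC tumors, only Acta2 and Tagln were called among the 10, both higher with FGF19 or Aldafermin, and 23.7% of all genes were. None of the 10 was called between Aldafermin + MYC and FGF19 + MYC tumors, nor was any of the 14333 genes by edgeR's quasi-likelihood test, with 0% called and 1048 genes, or 7.31%, at an unadjusted p under 0.05. DESeq2 called 96 genes in that comparison, none of them among the 10, but it gave no adjusted p for Reln, which could not be called.

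**Figure D1:**
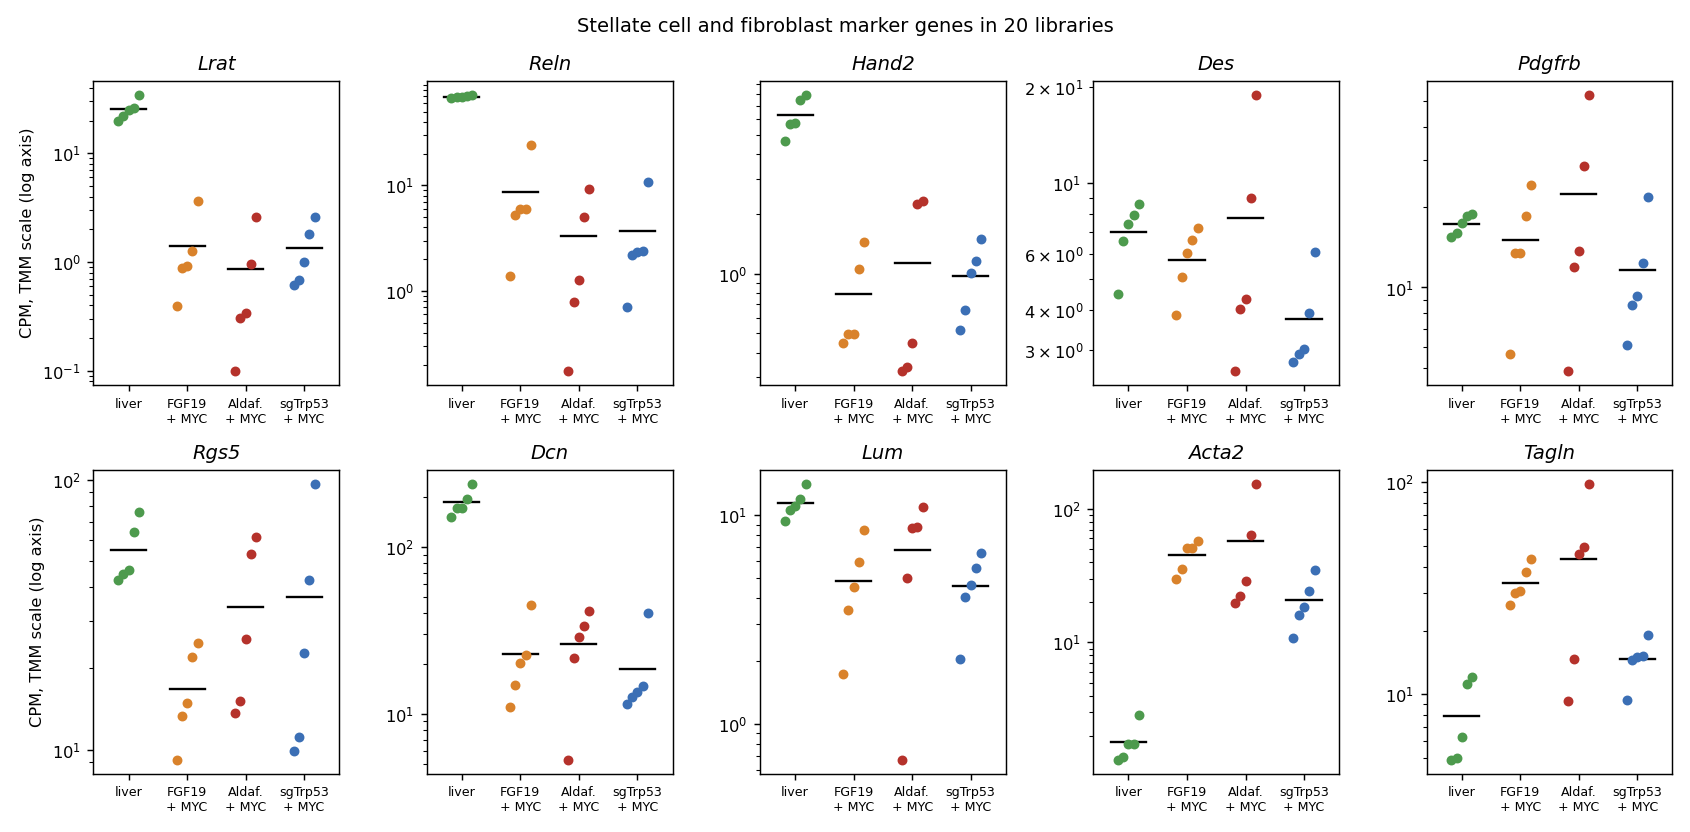
CPM on a log axis for the 10 marker genes in 20 libraries, with 1 point per library and a black line at the mean of each group of 5. Lrat, Reln, Hand2 and Dcn are higher in every liver than in any tumor, Acta2 is lower in every liver than in any tumor, and Des and Pdgfrb overlap between livers and tumors.

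Lrat, the acyltransferase that makes retinyl esters from retinol and so builds the vitamin A stores of stellate cells, fell furthest. It was at 19.9, 21.8, 26.0, 25.2 and 34.4 CPM in the livers. Those of the FGF19 + MYC tumors were 0.391, 0.910, 1.26, 0.880 and 3.62 CPM, and those of the Aldafermin + MYC tumors 0.340, 0.0992, 0.961, 2.62 and 0.309 CPM. The sgTrp53 + MYC tumors had 2.57, 0.993, 1.81, 0.681 and 0.614 CPM. Every tumor lay below every liver, and the 3 tumor groups overlapped throughout. The lowest tumor value rests on 4 reads and the lowest liver value on 278. Lrat was 23.2 times lower in FGF19 and Aldafermin tumors than in liver (log2 fold change -4.54 ± 0.55, edgeR adjusted p = 4.01e-07) and 19.1 times lower in sgTrp53 + MYC tumors (-4.25 ± 0.71, adjusted p = 2.66e-05).

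Reln encodes reelin, a large secreted glycoprotein that in adult liver is made by stellate cells and lymphatic endothelium. In livers it stood within a narrow range at 66.6, 69.1, 68.7, 70.7 and 72.1 CPM. With FGF19 + MYC it was at 1.40, 5.97, 5.21, 5.99 and 24.3 CPM, with Aldafermin + MYC at 1.26, 0.174, 5.04, 9.23 and 0.786 CPM, and with sgTrp53 + MYC at 2.36, 10.7, 2.40, 2.21 and 0.706 CPM. All tumors were again below all livers. The spread among tumors was the widest of the 10 genes, with the highest tumor at 140 times the lowest. Reln was 13.1 times lower in FGF19 and Aldafermin tumors (-3.71 ± 0.67, edgeR adjusted p = 5.60e-05) and 18.8 times lower in sgTrp53 + MYC tumors (-4.24 ± 0.89, adjusted p = 0.000319).

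Hand2, a basic helix-loop-helix transcription factor that marks liver mesenchyme, followed the same order. The livers had 5.67, 4.62, 5.70, 7.92 and 7.45 CPM. Tumors with FGF19 + MYC had 0.447, 1.06, 0.494, 0.499 and 1.44 CPM, Aldafermin + MYC tumors 0.340, 0.322, 2.24, 2.31 and 0.449 CPM, and sgTrp53 + MYC tumors 1.5, 0.658, 1.00, 1.16 and 0.522 CPM. No tumor reached a liver. Within the Aldafermin + MYC group, replicates 3 and 4 stood apart from the other 3 libraries. The difference from liver was -2.73 ± 0.44 in FGF19 and Aldafermin tumors (edgeR adjusted p = 1.40e-05) and -2.69 ± 0.55 in sgTrp53 + MYC tumors (adjusted p = 0.000222). Hand2 overlaps the antisense long noncoding RNA Hand2os1 over 468 exonic bases, and Lrat overlaps the antisense Rbm46os over 448. The libraries were stranded but the strand setting of the counting is not given in the sources used here.

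Genes that pericytes share with stellate cells did not fall in the same way. Des encodes the muscle intermediate filament desmin, and Pdgfrb the receptor through which platelet-derived growth factor B recruits mural cells. Des was at 4.51 to 8.57 CPM in livers, 3.86 to 7.21 in FGF19 + MYC tumors, 2.58 to 18.8 in Aldafermin + MYC tumors and 2.75 to 6.10 in sgTrp53 + MYC tumors. The groups overlapped, and the log2 fold change against liver was -0.07 in FGF19 and Aldafermin tumors, with a 95% interval from -0.76 to 0.63 (edgeR adjusted p = 0.871). In sgTrp53 + MYC tumors it was -0.90 ± 0.41 (adjusted p = 0.0586), a value that passed the threshold in 8 of 21 fits. Among these were the fits without liver replicate 3 (-1.04, adjusted p = 0.0424) or sgTrp53 + MYC replicate 3 (-1.15, adjusted p = 0.0257), DESeq2 (-0.94, adjusted p = 0.0319) and the replicate number as a block (-1.01, adjusted p = 0.0458). Without TMM factors Des was at 0.01 (adjusted p = 0.981).

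Pdgfrb was at 18.8, 15.4, 16.0, 18.5 and 17.4 CPM in livers, a narrow range that the tumors spread on both sides of. It was at 5.64, 18.5, 13.4, 13.5 and 24.3 CPM in FGF19 + MYC tumors, 12.0, 13.7, 52.7, 28.5 and 4.85 CPM in Aldafermin + MYC tumors, and 6.06, 12.3, 21.8, 9.33 and 8.58 CPM in sgTrp53 + MYC tumors. The lowest and the highest tumor were both Aldafermin + MYC libraries, replicates 5 and 3. The log2 fold change against liver was 0.09 in FGF19 and Aldafermin tumors (95% interval -0.72 to 0.91, edgeR adjusted p = 0.846) and -0.57 in sgTrp53 + MYC tumors (-1.51 to 0.37, adjusted p = 0.302). These intervals do not show that the levels are alike, and without TMM factors the values were 0.98 and 0.36, near or below the shift of all genes in that scaling.

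Rgs5, a regulator of G protein signaling that marks pericytes, was at 42.5, 44.9, 46.5, 75.9 and 64.2 CPM in livers. Rgs5 in FGF19 + MYC tumors was at 9.15, 14.8, 13.3, 22.0 and 24.7 CPM, all below the livers, while Aldafermin + MYC tumors with 13.6, 15.1, 53.3, 61.3 and 25.8 CPM and sgTrp53 + MYC tumors with 22.9, 42.6, 96.8, 11.1 and 9.90 CPM overlapped them. The difference from liver was -1.20 ± 0.45 over both FGF19 and Aldafermin tumors (edgeR adjusted p = 0.0210). It was -1.70 ± 0.55 for FGF19 + MYC tumors alone (adjusted p = 0.00970) and -0.70 ± 0.53 for Aldafermin + MYC tumors alone (adjusted p = 0.252), comparisons in which 69.7% and 70.3% of all genes were called and 62.5% and 58.8% were free of overlap. The 2 tumor groups themselves differed by 1.00 ± 0.54, which did not pass (adjusted p = 0.762). The joint call was lost without liver replicate 4 (-1.07, adjusted p = 0.0576) and without TMM factors (-0.33, adjusted p = 0.541). The value in sgTrp53 + MYC tumors was -0.58 ± 0.53 (adjusted p = 0.342), and -1.34 without replicate 3, the library with the highest Rgs5 of all 20 (adjusted p = 0.0199). Without TMM factors it turned to 0.37 (adjusted p = 0.558).

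Contractile genes moved the other way. Acta2, which encodes alpha smooth muscle actin, the standard marker of smooth muscle cells and myofibroblasts, was at 1.72, 1.32, 1.72, 2.87 and 1.39 CPM in livers. Among tumors, FGF19 + MYC libraries had 30.0, 50.8, 35.2, 57.6 and 51.2 CPM, Aldafermin + MYC tumors 19.8, 22.5, 155, 63.5 and 28.7 CPM, and sgTrp53 + MYC tumors 10.8, 18.5, 34.7, 24.1 and 16.0 CPM. The lowest tumor was thus above the highest liver in each group. Acta2 was 28.7 times higher in FGF19 and Aldafermin tumors than in liver (4.84 ± 0.53, edgeR adjusted p = 9.89e-08) and 11.7 times higher in sgTrp53 + MYC tumors (3.55 ± 0.52, adjusted p = 6.38e-06).

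Tagln encodes transgelin, or SM22 alpha, an actin-binding protein of smooth muscle. It was at 6.31, 4.91, 5.04, 12.0 and 11.2 CPM in livers, and at 37.8, 30.0, 26.3, 30.8 and 43.4 CPM in FGF19 + MYC tumors, which all exceeded the livers. Aldafermin + MYC tumors ranged widely, at 14.6, 9.33, 98.7, 49.6 and 46.0 CPM, and replicate 2 fell within the range of the livers. The sgTrp53 + MYC tumors had 19.1, 15.0, 15.2, 14.6 and 9.38 CPM. Tagln was 4.87 times higher in FGF19 and Aldafermin tumors than in liver (2.28 ± 0.44, edgeR adjusted p = 9.95e-05), and the value in sgTrp53 + MYC tumors was 0.90 ± 0.45 (adjusted p = 0.0840). The latter passed the threshold in 5 of 21 fits, among them the fit to these 2 groups alone (1.03, adjusted p = 0.0103) and the fit without TMM factors (1.78, adjusted p = 0.00183), and in none of the 10 fits that left out a single library.

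Against sgTrp53 + MYC tumors, Acta2 was 2.45 times higher in FGF19 and Aldafermin tumors (1.29 ± 0.42, edgeR adjusted p = 0.0304) and Tagln 2.62 times higher (1.39 ± 0.41, adjusted p = 0.0191). The groups overlapped for both genes, and 5.7% of all genes tested had groups without overlap. Both calls were near the threshold. Acta2 shares 301 exonic bases with the antisense Stambpl1, and Tagln 123 with Pcsk7 and 1241 with Gm48529, also antisense. Reads ambiguous between genes were 11.1 to 14.6% in sgTrp53 + MYC libraries against 3.03 to 6.296% in the others. Whether such reads lowered the counts of these genes was not tested. In the 15 fits that left out a single library, Acta2 passed in 12 and Tagln in 14. Acta2 no longer passed without sgTrp53 + MYC replicate 1 (1.13, adjusted p = 0.0678), replicate 2 (1.25, adjusted p = 0.0633) or replicate 5 (1.21, adjusted p = 0.0776), and Tagln no longer passed without replicate 5 (1.26, adjusted p = 0.0572). With FGF19 + MYC tumors alone, Acta2 differed from sgTrp53 + MYC tumors by 1.11 ± 0.46 (adjusted p = 0.104) and Tagln by 1.20 ± 0.45 (adjusted p = 0.0744), with 15.8% of all genes called. With Aldafermin + MYC tumors alone they differed by 1.47 ± 0.46 (adjusted p = 0.0335) and 1.57 ± 0.45 (adjusted p = 0.0217), with 17.7% called. Without replicate 3 of both the Aldafermin + MYC and the sgTrp53 + MYC tumors, the highest Acta2 libraries of these groups, Tagln differed by 1.09 (adjusted p = 0.0655) and Acta2 stayed past the threshold. Des was 0.84 ± 0.37 higher on the log2 scale (adjusted p = 0.107), and passed only without Aldafermin + MYC replicate 2 (0.95, adjusted p = 0.0484). The other 7 markers passed in none of the fits, with log2 fold changes from -0.62 for Rgs5 to 0.66 for Pdgfrb.

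The promoters of Acta2 and Lrat are shown because these genes gave the largest rise and the largest fall. Each run is the 250 bases before the RefSeq start on the gene's strand, from a RefSeq table of build GRCm38.p6, and was placed on GRCm39 by exact match, at chr19:34232774-34233023 on the minus strand for Acta2 and chr3:82811282-82811531 on the minus strand for Lrat. Capitals mark CArG boxes, the binding motif of serum response factor that drives many contractile genes. The usual box has CC and GG around a core of 6 bases, all A or T, and neither window held one, while 1.47% of all windows of this length did. The boxes marked are of a relaxed form that allows 1 C or G in the core, and each of the 3 has one. Both forms read the same on both strands.
Acta2: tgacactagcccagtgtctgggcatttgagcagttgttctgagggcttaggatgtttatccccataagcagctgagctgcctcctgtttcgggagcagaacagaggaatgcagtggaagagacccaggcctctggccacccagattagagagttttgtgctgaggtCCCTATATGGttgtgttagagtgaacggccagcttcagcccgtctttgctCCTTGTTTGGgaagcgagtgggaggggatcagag
Lrat: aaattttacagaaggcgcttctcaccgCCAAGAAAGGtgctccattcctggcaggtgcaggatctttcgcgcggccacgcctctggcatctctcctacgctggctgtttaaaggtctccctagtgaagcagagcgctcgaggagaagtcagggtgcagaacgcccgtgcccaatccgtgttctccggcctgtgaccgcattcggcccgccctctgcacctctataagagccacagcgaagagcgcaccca
Acta2 held 2 relaxed boxes, which begin 84 and 34 bases before the start, and Lrat held 1, which begins 223 bases before it. Of 32851 promoter windows of the same length in the table, 8.59% held at least 1 relaxed box and 0.67% held 2 or more. The windows of Reln, Des, Rgs5 and Hand2 held none. A match is a description of the sequence only, and the windows of the other 4 genes, Pdgfrb, Tagln, Dcn and Lum, were not analysed here. Acta2 shares 301 exonic bases with the antisense gene Stambpl1, and Tagln shares 123 with the antisense Pcsk7 and 1241 with the antisense Gm48529.

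Both matrix proteoglycans were lower in tumors. Dcn encodes decorin, a small leucine-rich proteoglycan that binds collagen fibrils, and was the most abundant of the 10 genes in livers at 171, 151, 171, 195 and 240 CPM. In FGF19 + MYC tumors it was at 10.995, 22.4, 14.9, 20.2 and 44.8 CPM, Aldafermin + MYC tumors 21.7, 5.28, 33.5, 41.3 and 28.7 CPM, and sgTrp53 + MYC tumors 40.4, 14.6, 13.5, 11.4 and 12.6 CPM. Every tumor was below every liver. Dcn was 7.64 times lower in FGF19 and Aldafermin tumors (-2.93 ± 0.37, edgeR adjusted p = 7.67e-07) and 10.04 times lower in sgTrp53 + MYC tumors (-3.33 ± 0.49, adjusted p = 5.66e-06).

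Lum encodes lumican, of the same family, and lies next to Dcn on chromosome 10. It was at 10.6, 11.03, 11.9, 9.36 and 14.1 CPM in livers. Tumors with FGF19 + MYC had 1.73, 5.97, 3.501, 4.52 and 8.47 CPM and sgTrp53 + MYC tumors 6.59, 5.56, 2.04, 4.03 and 4.64 CPM, all below the livers, while Aldafermin + MYC tumors at 10.9, 0.670, 8.78, 5.00 and 8.64 CPM overlapped them. The fall was smaller than that of Dcn in fitted value, -0.99 ± 0.41 in FGF19 and Aldafermin tumors (edgeR adjusted p = 0.0376) and -1.32 ± 0.50 in sgTrp53 + MYC tumors (adjusted p = 0.0240), and the difference between the genes was not tested. With FGF19 + MYC tumors alone Lum differed from liver by -1.23 (adjusted p = 0.0344), and with Aldafermin + MYC tumors alone by -0.75, which did not pass (adjusted p = 0.183). The joint call was also lost with no filter on low counts (-0.82, adjusted p = 0.1001) and with an offset for GC content and length (-0.84, adjusted p = 0.0750). It held in 6 of 15 fits that left out a library, and was lost without Aldafermin + MYC replicate 4 or 5, without FGF19 + MYC replicate 1, 3 or 4 and without liver replicate 1, 2, 3 or 5, with values of -1.03 to -0.88 and adjusted p of 0.0506 to 0.0804. The call in sgTrp53 + MYC tumors was lost without replicate 3 of that group (-1.13, adjusted p = 0.0598) and with no filter on low counts (-1.04, adjusted p = 0.0849). Without TMM factors Lum was at -0.14 (adjusted p = 0.771) and -0.47 (adjusted p = 0.387), both below the shift of all genes.

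**Figure D2:**
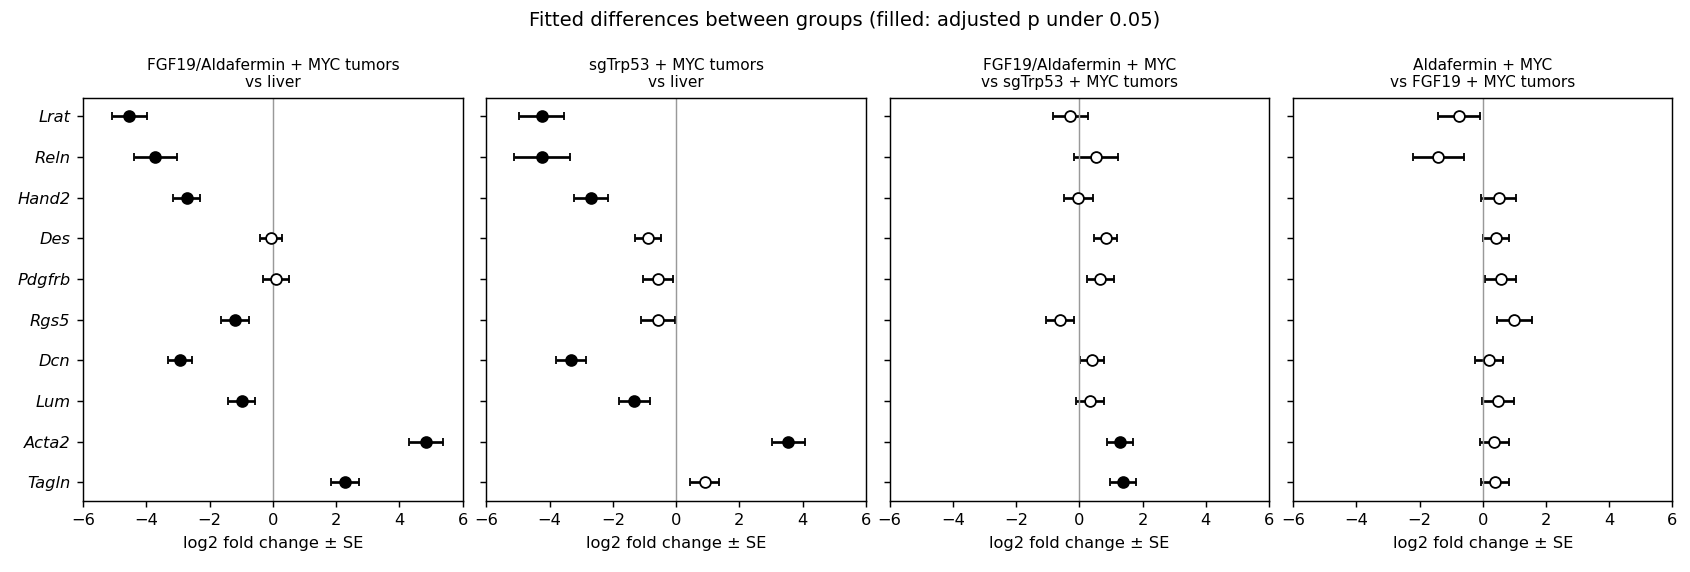
Log2 fold change ± SE of the 10 marker genes in 4 comparisons, from the edgeR fit to 20 libraries, with filled points where the adjusted p was under 0.05. Acta2 is at 4.84 and 3.55 against liver, Lrat at -4.54 and -4.25, and all 10 points are open between Aldafermin + MYC and FGF19 + MYC tumors.

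Overlap between tumors and livers was also counted gene by gene. Lrat, Reln, Hand2 and Dcn were lower, and Acta2 higher, in every FGF19 and Aldafermin tumor than in any liver, and 54.2% of all genes tested were free of overlap in that comparison, 28.5% higher and 25.7% lower. Lum joined them in sgTrp53 + MYC tumors, where 56.2% of all genes were free of overlap, 28.8% higher and 27.4% lower.

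Between Aldafermin + MYC and FGF19 + MYC tumors, all 10 markers overlapped, and 1.46% of all genes tested did not. The order of group means was Aldafermin + MYC above FGF19 + MYC for 8 of the 10 genes, and the reverse for Lrat and Reln, with no difference beyond the spread. By group median, FGF19 + MYC was also the higher for Des (6.05 against 4.35 CPM), Acta2 (50.8 against 28.7 CPM) and Hand2 (0.499 against 0.449 CPM). Reln had the largest fitted difference at -1.40, with a 95% interval from -3.01 to 0.20 (edgeR adjusted p = 0.791), followed by Rgs5 at 1.00, from -0.05 to 2.06 (adjusted p = 0.762). For Acta2 the interval reached from -0.53 to 1.25, and for Tagln from -0.49 to 1.24.

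The levels of different genes were compared per kb of transcript. In livers Dcn held 42.0% of the summed CPM per kb of the 10 genes, Rgs5 18.1%, and Reln and Lrat 8.36% and 6.55%. Acta2 and Tagln together held 7.27% ± 1.87 (SD, n = 5) in livers, 71.0% ± 6.75 in FGF19 + MYC tumors, 63.6% ± 8.87 in Aldafermin + MYC tumors and 49.8% ± 9.998 in sgTrp53 + MYC tumors. The highest liver was at 10.1% and the lowest tumor at 39.3%. The sum itself was 72.5 ± 12.7 CPM per kb in livers, 52.2 ± 12.6 in FGF19 + MYC tumors, 69.9 ± 53.5 in Aldafermin + MYC tumors and 34.4 ± 12.97 in sgTrp53 + MYC tumors.

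**Figure D3:**
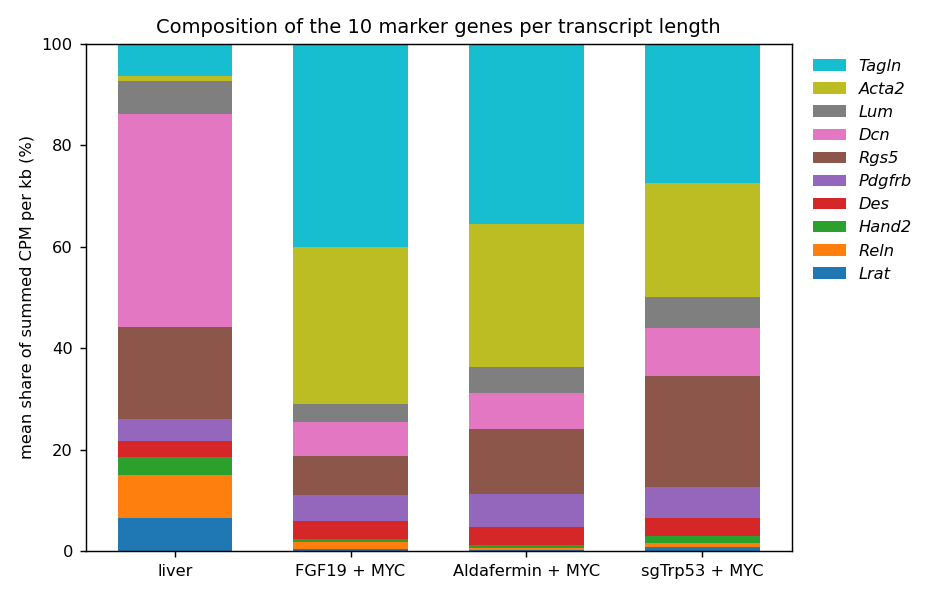
Mean share of each marker gene in the summed CPM per kb of all 10, in percent, for 5 libraries a group. Dcn is the widest band in livers at 42.0%, and Acta2 and Tagln together take 71.0%, 63.6% and 49.8% in the tumor groups as drawn from left to right.

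Other genes of the same cells were read from lists that do not contain the 10. Of 19 further stellate cell genes tested, 18 were lower in FGF19 and Aldafermin tumors than in liver and 1 was higher, with a median log2 fold change of -3.01 against 0.10 over all genes. Against the same livers, 17 of them were lower and 1 higher in sgTrp53 + MYC tumors, at a median of -3.19. The lowest adjusted p values belonged to Cxcl12, a chemokine, at 35.5 CPM in FGF19 and Aldafermin tumors against 506 CPM in livers (-3.83 ± 0.24, edgeR adjusted p = 3.64e-11), Bmp5, a bone morphogenetic protein (-2.96 ± 0.34, adjusted p = 1.88e-07), and Angptl6 (-3.22 ± 0.37, adjusted p = 1.99e-07). For sgTrp53 + MYC tumors they belonged to Cxcl12 (-2.74 ± 0.30), the collectin Colec11 (-3.69 ± 0.46) and Bmp5 (-3.49 ± 0.44). The gene that rose in both was Nes, the intermediate filament nestin (1.93 ± 0.62, adjusted p = 0.00898, and 2.46 ± 0.69, adjusted p = 0.00358), which endothelial and progenitor cells also express. Of all genes, 34.5% were lower than in liver in FGF19 and Aldafermin tumors and 33% in sgTrp53 + MYC tumors, with 73.7% and 69.9% called.

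Retinoid handling genes fell with Lrat. Of 11 tested, 10 were lower and 1 higher in FGF19 and Aldafermin tumors, and 9 were lower in sgTrp53 + MYC tumors. Among them were Pnpla2, a lipid droplet lipase (-1.73 ± 0.10, edgeR adjusted p = 1.77e-11), Plin2, a coat protein of lipid droplets (-2.58 ± 0.24, adjusted p = 8.43e-09), and the retinaldehyde dehydrogenase Aldh1a1 (-4.13 ± 0.39, adjusted p = 1.25e-08), genes that hepatocytes express as well. Bco1, the carotene oxygenase, rose by 0.93 ± 0.30 (adjusted p = 0.00916). Of all genes, 34.5% were lower and 73.7% called in FGF19 and Aldafermin tumors against liver. In sgTrp53 + MYC tumors 33% were lower and 69.9% called.

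Smooth muscle and contractile genes went with Acta2 and Tagln in part. Of 12 tested, FGF19 and Aldafermin tumors had 8 higher and 2 lower (median 1.05) and sgTrp53 + MYC tumors had 3 higher and 2 lower (median 0.52). Of all genes, 39.2% were higher and 73.7% called in the first comparison, and 36.9% higher and 69.9% called in the second, so that the calls in sgTrp53 + MYC tumors were fewer than among genes at large. Tpm1, a tropomyosin, rose in both (1.80 ± 0.11, edgeR adjusted p = 1.44e-11, and 1.95 ± 0.12, adjusted p = 2.42e-11), as did the smooth muscle actin Actg2 (4.97 ± 0.59 and 3.63 ± 0.60), which was at 1 to 7 reads in the livers. Mylk, the myosin light chain kinase, fell in both (-2.72 ± 0.38 and -2.59 ± 0.47). Myh11, the smooth muscle myosin heavy chain, rose by 1.67 ± 0.62 in FGF19 and Aldafermin tumors (adjusted p = 0.0199). Against sgTrp53 + MYC tumors, 1 of the 12 was called, Actg2, at 5.87 against 2.27 CPM (1.35 ± 0.44, adjusted p = 0.0326). In that comparison 23.7% of all genes were called.

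Of 10 pericyte genes tested, 3 rose and 4 fell in each tumor comparison with liver, a share near the 73.7% and 69.9% of all genes called. Mcam, an adhesion molecule, rose by 2.08 ± 0.26 in FGF19 and Aldafermin tumors (edgeR adjusted p = 6.93e-07) and 1.27 ± 0.28 in sgTrp53 + MYC tumors. Cspg4, the NG2 proteoglycan, rose in both and was higher in sgTrp53 + MYC tumors, at 17.0 CPM against 3.39 CPM in FGF19 and Aldafermin tumors (-2.35 ± 0.48, adjusted p = 0.00179). Abcc9, a potassium channel subunit, fell in both (-1.73 ± 0.29 and -2.22 ± 0.37).

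Fibroblast genes were mixed, with 4 of 12 tested higher and 3 lower in each tumor comparison with liver. This is below the share of all genes called, 73.7% in FGF19 and Aldafermin tumors and 69.9% in sgTrp53 + MYC tumors. Cd34 (2.46 ± 0.21, edgeR adjusted p = 2.28e-09), which endothelium shares, and the elastin gene Eln (2.90 ± 0.44, adjusted p = 8.28e-06) rose in FGF19 and Aldafermin tumors, while Gas1 fell from 29.6 to 0.590 CPM (-5.64 ± 0.54, adjusted p = 1.61e-08). Of 8 further small leucine-rich proteoglycans tested, 5 fell and 2 rose in FGF19 and Aldafermin tumors, and 6 fell and 2 rose in sgTrp53 + MYC tumors. Prelp fell there with Dcn and Lum (-2.47 ± 0.44, adjusted p = 5.43e-05), and Aspn rose (3.75 ± 0.59, adjusted p = 1.26e-05) from a level of 0 to 3 reads per liver. Chad had 0 reads in every liver and was higher in sgTrp53 + MYC tumors, at 15.5 CPM against 0.843 CPM in FGF19 and Aldafermin tumors (-4.41 ± 0.51, adjusted p = 4.36e-05).

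Of 10 other mesenchymal transcription factors tested, 5 were lower and 2 higher in FGF19 and Aldafermin tumors, and 6 lower and 2 higher in sgTrp53 + MYC tumors, where 73.7% and 69.9% of all genes were called. Snai2 (-4.02 ± 0.44, edgeR adjusted p = 1.12e-07), Lhx2 (-3.84 ± 0.57, adjusted p = 5.43e-06) and Foxf1 (-2.26 ± 0.41, adjusted p = 5.94e-05) fell with Hand2, while Prrx1 (1.70 ± 0.42, adjusted p = 0.00131) and Meox1 (1.43 ± 0.42, adjusted p = 0.00486) rose. Of 5 PDGF ligands and receptors tested, 1 was higher and 3 were lower in each tumor comparison with liver. Pdgfb, the ligand of the receptor encoded by Pdgfrb, was higher in FGF19 and Aldafermin tumors (1.98 ± 0.28, adjusted p = 2.93e-06) and in sgTrp53 + MYC tumors (2.21 ± 0.30, adjusted p = 2.66e-06). Pdgfra, the receptor of portal fibroblasts and stellate cells, was lower in both (-2.64 ± 0.47, adjusted p = 4.80e-05, and -2.56 ± 0.59, adjusted p = 0.000746). None of the companion genes was called between Aldafermin + MYC and FGF19 + MYC tumors.

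Markers of other cell types moved with these groups, and their part in the results was not tested. The summed CPM of 10 hepatocyte markers was 194190 to 247710 in livers, 10689 to 31440 in FGF19 + MYC tumors, 10032 to 24524 in Aldafermin + MYC tumors and 5047 to 13281 in sgTrp53 + MYC tumors, and all 10 were lower in both comparisons with liver. As a share of the liver mean, the hepatocyte sum was 2.31 to 14.4% in the 15 tumors, where Lrat was 0.390 to 14.2%, Reln 0.250 to 35.0%, Hand2 5.14 to 36.8% and Dcn 2.85 to 24.2%. Summed endothelial markers were 278 to 450 CPM in livers and 65.4 to 218 CPM in tumors, with 6 of 10 lower and 1 higher in FGF19 and Aldafermin tumors and 7 of 10 lower in sgTrp53 + MYC tumors. Kupffer cell and macrophage markers summed to 513 to 833 CPM in livers, 342 to 949 CPM in FGF19 and Aldafermin tumors and 173 to 280 CPM in sgTrp53 + MYC tumors, with 1 of 10 higher and 4 lower in FGF19 and Aldafermin tumors than in liver and 1 higher and 9 lower in sgTrp53 + MYC tumors. Against liver, 73.7% of all genes were called in FGF19 and Aldafermin tumors and 69.9% in sgTrp53 + MYC tumors. The endothelial markers were near this at 70% in each, and the macrophage markers were at 50% and 100%. Of the 10 macrophage markers, 7 were higher in FGF19 and Aldafermin tumors than in sgTrp53 + MYC tumors, where 23.7% of all genes were called.

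Cholangiocyte markers summed to 71.2 to 161 CPM in livers and 18.1 to 105 CPM in FGF19 and Aldafermin tumors. In sgTrp53 + MYC tumors 4 libraries were at 23.7 to 49.5 CPM and replicate 2 was at 795 CPM. Mesothelial markers summed to 4.44 to 19.5 CPM in livers and 0.558 to 6.76 CPM in FGF19 and Aldafermin tumors, and again sgTrp53 + MYC replicate 2 stood apart at 199 CPM against 1.20 to 4.15 CPM in the other 4. Lymphocyte markers stayed at 9.08 CPM or less in all 20 libraries, with none of 8 markers tested. Lymphatic and nerve markers summed to 135 to 235 CPM in livers and 33.2 to 126 CPM in tumors, with Sox10 at 0 throughout. Striated muscle markers summed to 18.6 to 553 CPM in sgTrp53 + MYC tumors against at most 8.12 CPM in the other groups, while Myod1, Myog, Myh1 and Myh4 were at 0 in sgTrp53 + MYC tumors.

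**Figure D4:**
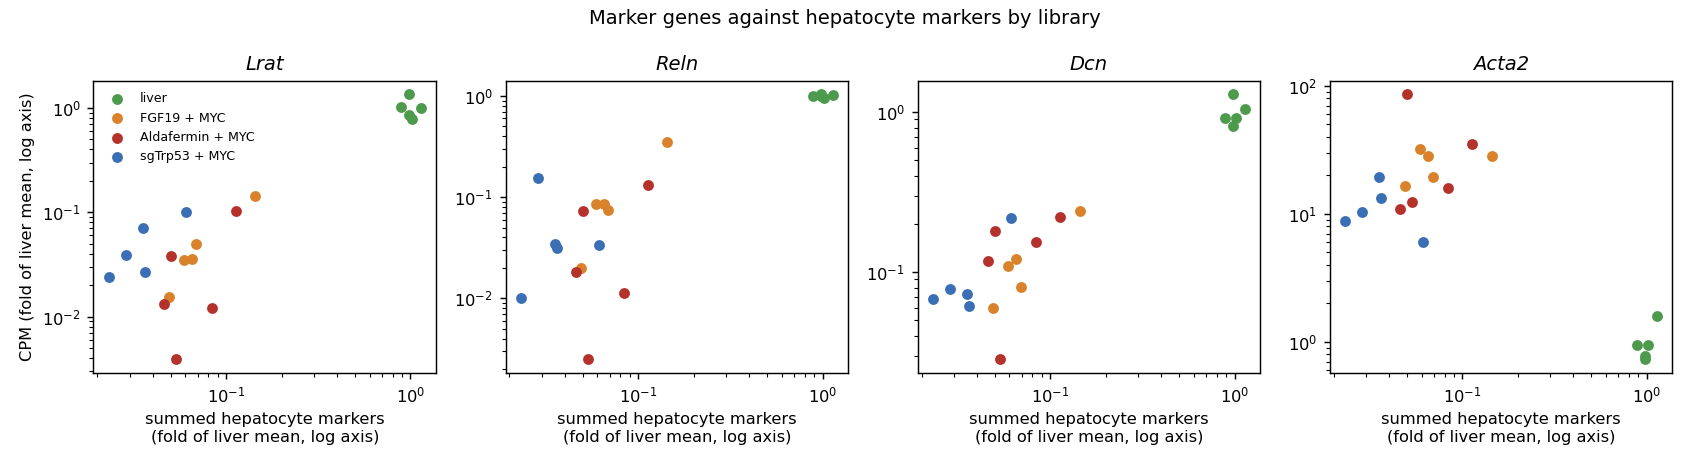
Level of Lrat, Reln, Dcn and Acta2 in each library against the summed hepatocyte markers, both as a fold of the liver mean on log axes, with 1 point per library and colors for the 4 groups. Livers lie near 1 on both axes, tumors lie at 0.0231 to 0.144 on the horizontal axis, and Acta2 reaches a fold of 85.7 in Aldafermin + MYC replicate 3.

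Within groups, most of the 10 genes varied together. Over the 20 libraries, with each group's mean taken out of the log2 CPM, the 45 pairs of markers had a Pearson r from 0.10 to 0.84 with a median of 0.65. All 45 were above 0 by Pearson r, and some pairs with Lum lost this direction by another measure. Dcn with Lum did not, with a Pearson r of 0.81 and 0.65 without the 2 farthest libraries. Acta2 with Lum had a Spearman rho of -0.04, and without the 2 farthest libraries Des with Lum went from 0.35 to -0.26 and Tagln with Lum from 0.46 to -0.10. These points share their library, depth and scaling. The livers contributed little spread for Reln, with an SD of log2 CPM of 0.0434, but not for every gene. For Tagln the SD was 0.618 in livers, against 0.286 in FGF19 + MYC, 0.373 in sgTrp53 + MYC and 1.39 in Aldafermin + MYC tumors. The closest pairs were Lrat with Dcn and Des with Acta2, both at a Pearson r of 0.84. Acta2 with Tagln was at 0.67, with a Spearman rho of 0.48, and at a Pearson r of 0.40 without the 2 farthest libraries. Aldafermin + MYC replicate 2 had the lowest value of all 15 tumors for 7 of the 10 genes (Lrat, Reln, Hand2, Des, Tagln, Dcn and Lum), and Aldafermin + MYC replicate 3 had the highest for 4 (Des, Pdgfrb, Acta2 and Tagln). FGF19 + MYC replicate 5 had the highest for Lrat, Reln and Dcn, and was also the tumor with the highest hepatocyte sum.

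**Figure D5:**
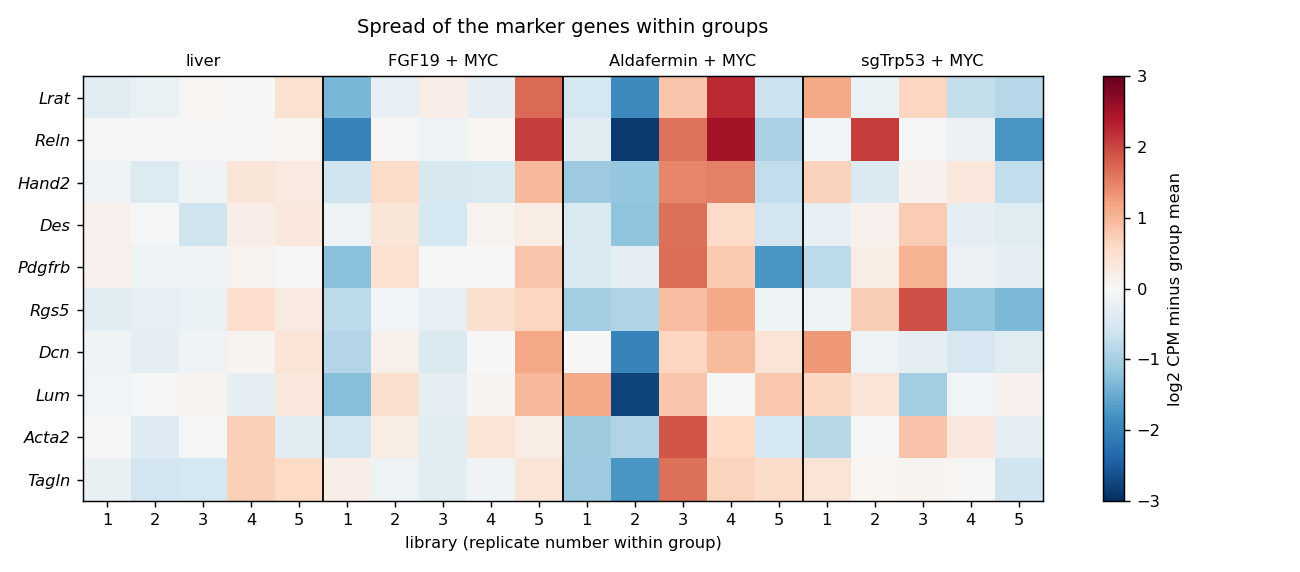
Log2 CPM of each marker gene minus its group mean in 20 libraries, in red where a library lies above its group and in blue where it lies below. The livers are pale, Aldafermin + MYC replicate 2 is blue in all 10 rows and replicate 3 is red in all 10.

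The markers were also set beside the marker sums across the 15 tumors, with group means taken out, and differences between these correlations were not tested. Lrat had a Pearson r of 0.74 with the hepatocyte sum, 0.69 with the macrophage sum and 0.65 with the endothelial sum. Dcn had 0.68 with the hepatocyte sum, where Acta2 had 0.06, Des 0.10 and Pdgfrb 0.10. Pdgfrb and Acta2 had 0.88 and 0.82 with the endothelial sum and both 0.76 with the macrophage sum, and Hand2 had 0.84 with the macrophage sum. The genes nearest to each marker by the same measure were sought among 14332 others over 20 libraries. Dcn was nearest to Mup20 (0.94), Hgf (0.93) and Cyp3a11 (0.92), of which Mup20 and Cyp3a11 are hepatocyte genes and Hgf a stellate cell gene. Lrat was nearest to Ugt3a2 (0.95), Mug-ps1 (0.93) and Srxn1 (0.93).

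Acta2 was nearest to Myl9, a smooth muscle myosin light chain (0.95), then Lbh and Adgra2 (both 0.90). Tagln was nearest to Prss23 (0.90), Ccn2 (0.89) and Clca3a1 (0.86), and Hand2 to Tcf21, another mesenchymal transcription factor (0.95), Tnfrsf11b (0.93) and Itga8 (0.91). Lum was nearest to the microfibril gene Mfap4 (0.90), Cxcl14 (0.87) and Commd9 (0.85), and Reln to Ifi27l2b (0.95), Efemp1 (0.93) and Vwf (0.90). Of the pericyte markers, Pdgfrb was nearest to Itgal, Sp100 (both 0.96) and Adam19 (0.95). Rgs5 was nearest to Jag2 (0.92), Ddx60 (0.89) and H2-T23 (0.87), and Des to P2ry6 (0.91), Sp140 (0.90) and Ddr2 (0.89).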

How the data were processed

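The authors made stranded mRNA libraries, aligned reads with HISAT2 to mouse build mm39 and counted them per RefSeq gene with htseq-count. They deposited whole-number counts per gene symbol in 2 tables, 15 libraries in one and the 5 sgTrp53 + MYC libraries in the other. The 5 summary lines (33.7 to 56.2% of reads) were left out. Genes with a CPM of at least 1 in at least 5 libraries were tested with edgeR 4.0.16 (R 4.3.3): TMM factors, 1 fit to all 20 libraries with 1 mean per group, quasi-likelihood test, Benjamini-Hochberg adjustment. Depth set 1 count at 0.0115 to 0.0717 CPM. Intervals are at a nominal 95% from a normal approximation, with the SE taken from the test statistic. They are somewhat narrower than the quasi-likelihood test implies. The script was tested on simulated data. CPM per kb used the canonical transcript of GENCODE M39 on GRCm39.

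The 10 markers, the lists and the tests were chosen with earlier results of these data known. All 10 are named in every comparison. Of each further list, the 3 genes with the smallest adjusted p were eligible for naming, and Nes, Bco1, Myh11, Prrx1, Meox1 and, in sgTrp53 + MYC tumors against liver, Mcam were chosen outside that rule after their values were seen. No library was a copy of another (lowest chi-square per degree of freedom within a group 15.0). Same-numbered samples of different groups did not vary together (30 pairs, r from -0.33 to 0.33), so that the numbers do not pair them. Other alternatives were DESeq2 1.42.0, other scalings and filters, a replicate block, single groups and each library left out. Overlapping and antisense genes were read from the annotation.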

Additional observations from a re-analysis of the deposited data

Results flagged for a closer look

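In groups of 5, a library was set apart where its gap to the nearest other, as a share of the group's range, exceeded Dixon's 95% critical value. For independent groups of normally distributed values this happens in about 1 in 20 groups. Of 72 groups of values examined, 8 were set apart, where that rate would give 3.6. The values were CPM without a log, and the groups share libraries, so that the rate may not hold here. Whether 8 exceeds chance was not tested, and the rule was not applied on the log2 scale. FGF19 + MYC replicate 5 was high for Lrat (3.62 CPM against 0.391 to 1.26 in the other 4), for Reln (24.3 CPM against 1.40 to 5.99) and for the summed hepatocyte markers (31440 CPM against 10689 to 15038). Against the liver means, these are 14.2% for Lrat, 35.0% for Reln and 14.4% for the hepatocyte sum. The sgTrp53 + MYC replicate 2 was high for Reln (10.7 CPM against 0.706 to 2.40), the cholangiocyte markers (795 CPM against 23.7 to 49.5) and the mesothelial markers (199 CPM against 1.20 to 4.15). Dcn was high in sgTrp53 + MYC replicate 1 (40.4 CPM against 11.4 to 14.6). Acta2 was high in liver replicate 4 (2.87 CPM against 1.32 to 1.72). What sets these libraries apart was not tested.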

How the results depend on the processing

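The count of markers called against liver stayed at 6 to 8 of 10 both for FGF19 and Aldafermin tumors and for sgTrp53 + MYC tumors under every alternative run, leaving out single libraries included. Lrat, Reln, Hand2, Dcn and Acta2 kept direction and call against liver in all of them, except that DESeq2 gave no adjusted p for Reln. Between FGF19 and Aldafermin tumors and sgTrp53 + MYC tumors the count was 2, and it was 1 with only the groups compared in the fit, 0 with FGF19 + MYC tumors alone, 1 without replicate 3 of both the Aldafermin + MYC and the sgTrp53 + MYC tumors, and 0 to 3 when each library was left out. Leaving out that pair of libraries, the fit without TMM factors and a loess offset per library for GC content and length were chosen after seeing the data. No called value changed sign. Rgs5, Lum, Des and Tagln crossed the threshold in 1 or more fits against liver, and what moved them was not tested.

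With the replicate number as a block, the counts were 8, 7, 2 and 0, against 8, 6, 2 and 0 without it. The added call was Des in sgTrp53 + MYC tumors, and the block changed no other call on the markers. Of 30 same-numbered pairs, 6 had a correlation over 0.1.

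Over all genes, the calls between Aldafermin + MYC and FGF19 + MYC tumors were 0 in the reported fit, 96 by DESeq2, 59 by the likelihood ratio test, 2 with DESeq2 size factors, and 6 and 29 without Aldafermin + MYC replicate 2 or 4. Without TMM factors, 76.9% of calls against liver were higher for FGF19 and Aldafermin tumors and 77.9% for sgTrp53 + MYC tumors, against 53.2% and 52.8% with them. The lowest counts behind a marker, 4 reads for Lrat and 7 for Reln, limit the levels of Aldafermin + MYC replicate 2.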
